A study of Mus musculus with 2 samples.

Results

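Ascl2, the TCF genes Tcf7 and Lef1, and 7 genes of the follicular helper programme were read across the cells of mouse liver in a pair of single-cell RNA-seq libraries. The 10 genes were Ascl2, Tcf7, Lef1, Bcl6, Icos, Pdcd1, Maf, Slamf6, Sh2d1a and Cd200, chosen by symbol from the 33696 genes in the files, and each symbol named 1 gene. All 10 had at least 1 unique molecular identifier (UMI, a tag that counts 1 captured RNA molecule) in each library. The study collected liver from Slc22a18 -/- mice and from Slc22a18 +/+ mice, and its title names a path from beta-catenin to Ascl2. Each genotype was 1 library from 1 liver sample. The strain, age, sex, number of animals and the deleted exons were not given in the sources used here. With 1 library per genotype no test between genotypes was possible, and no p-value is given. Intervals below are exact 95% intervals that cover counting error only, not differences between animals.

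Follicular helper T cells are CD4 T cells that enter B cell follicles and help B cells make antibody. Bcl6 is the transcription factor that defines them, and Ascl2, a basic helix-loop-helix factor, is known for turning on the follicle-homing receptor Cxcr5 early in that path. Ascl2 is also a Wnt target in intestinal stem cells. Tcf7 (TCF1) and Lef1 are the T cell members of the TCF family, the DNA-binding partners of beta-catenin, and they favour both naive T cells and the follicular helper fate over other helper fates. Icos, Pdcd1 (PD-1), Slamf6 and Cd200 are surface proteins found on follicular helper cells, Sh2d1a encodes SAP, the adaptor that Slamf6 signals through, and Maf is a transcription factor of follicular helper, Th17 and innate-like T cells.

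The knockout-labelled library held 11741 barcodes and 103478998 UMIs, and the wild-type library held 12796 barcodes and 105556354 UMIs. After filters on UMIs, genes, mitochondrial share and doublet calls, 11153 and 12069 cells were kept, with median depths of 5865 and 5378 UMIs. Slc22a18 itself was counted at 21.3 CPM (UMIs of the gene in 1000000 UMIs) in the knockout-labelled library and 24.5 CPM in the wild-type one, which is 0.868 times as much (0.818 to 0.921) in the former. Counts made at the 3' end of a transcript can lie outside a deleted part, so this value does not check the label. The libraries shared 38 barcodes, 34 of them among kept cells. T cells were 498 and 576 of the kept cells. Cd3d was found in 85.9% and 90.3% of them and Trac in 74.9% and 75.0%, while the B cell gene Cd79a was found in 1.2% and 3.3%. Alb, the hepatocyte albumin gene, had UMIs in 100% of T cells of both libraries. A class or subset entered a comparison between libraries when neither library had fewer than 50 of its cells. Here a gene passed the size rule when both libraries together held 50 or more of its UMIs, its levels differed 2 times or more with 1 outside the interval, and 5% or more of the cells showed it in the library where it was higher.

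The T cells fell into subsets clustered with the 10 genes left out. Naive CD4-like cells were 88 in the knockout-labelled library and 141 in the wild-type library, 17.7% and 24.5% of T cells. Naive CD8-like cells were 60 and 93, or 12.0% and 16.1%. Innate-like T cells, led by Zbtb16 and Il4, were 132 and 177, or 26.5% and 30.7%. Dividing T cells were 75 and 23, or 15.1% and 3.99%, and they carried 26.3% and 8.66% of all T cell UMIs. A CD8-like subset held 57 and 44 cells. Its leading genes included Cd8b1, Gzmk and Ccl5, but also the dividing markers Stmn1 and Birc5 and the immunoglobulin gene Igkc. Its second-best marker list was the dividing one, and it was not counted among the dividing T cells. A T cell cluster led by Klra7 and Cd200r2, with Itga1 in 91.6% of its cells, held 54 and 65 cells and was left unnamed. Smaller clusters led by Klra7, Klra1 and Klra6 (20 and 23 cells) and by Il23r and Il17a (12 and 10 cells) were also left unnamed. Beside the T cells stood Itga1-positive NK/ILC1-like cells (69 and 117 cells) and Eomes-positive NK-like cells (30 and 31 cells). Each share comes from 1 library, with no replicate.

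**Figure D1:**
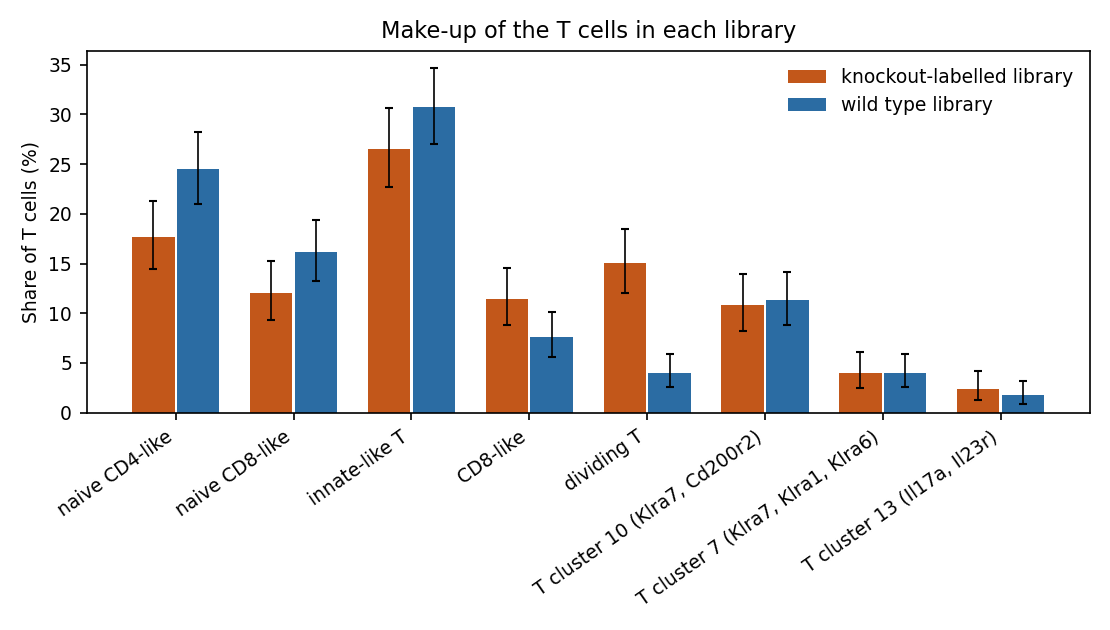
Share of T cells in each subset, in percent, for the knockout-labelled library (498 T cells) and the wild-type library (576 T cells), with exact 95% intervals for counting error. Dividing T cells made up 15.1% against 3.99%, and naive CD4-like cells 17.7% against 24.5%.

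Ascl2 was almost absent from these livers, and no UMI of it was found in a lymphocyte of the T, NK and ILC groups. It had 5 UMIs in all barcodes of the knockout-labelled library and 10 in the wild-type library, of which 5 and 9 lay in kept cells. These 14 UMIs came from 14 cells with 1 UMI each. By cell class they lay in 1 and 3 Kupffer cells, 1 and 1 monocytes, 0 and 2 neutrophils, and 1 cell per library in each of the endothelial, hepatocyte and stellate classes. The cells were deep, with a median of 12003.5 UMIs and a range from 1404 to 36143. Among the 1002 and 1094 T, NK and ILC lymphocyte barcodes, which together held 9668026 UMIs, the count was 0. A count of 0 in 2096 barcodes allows a share of up to 0.143% of them with a UMI and a level of up to 0.310 CPM. For each library alone the share is up to 0.299% and 0.274%. These barcodes include unnamed clusters of 307, 282 and 140 barcodes with median depths of only 1153, 1193.5 and 911 UMIs. A further 46 lay in a cluster whose median doublet score was too high for a name. The limits on the share are therefore looser for named T, NK and ILC cells alone. Within the 168 T cells with a Cd4 UMI and none of Cd8a, Cd8b1 or Foxp3, 67 and 101 by library, Ascl2 was also at 0. A difference in Ascl2 between the libraries was therefore not detectable at this depth in any T cell subset.

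Ascl2 (ENSMUSG00000009248) lies on chromosome 7 at 142966829 to 142969264 on the minus strand of GRCm38, 504 kb from Slc22a18, which lies at 143473736 to 143499334 on the plus strand of the same chromosome. Tcf7 lies on chromosome 11 (52252371 to 52283014, minus), Lef1 on chromosome 3 (131110471 to 131224356, plus) and Bcl6 on chromosome 16 (23965052 to 23988852, minus). RefSeq promoter windows of the GRCm38.p6 build, 250 bases ending just before a start site, were matched for 7 of the 10 genes (12 windows), and the other 3 are named only: Icos, Maf and Sh2d1a. The windows below are shown for the gene named in the study's title, for a TCF gene and for Bcl6, since basic helix-loop-helix factors such as Ascl2 bind the E-box. Capitals mark each E-box (CANNTG, which reads as itself on the opposite strand), and sequences run 5' to 3' on the gene's strand. They cover chr7:142969265-142969514 (minus strand) for Ascl2, chr3:131110047-131110296 (plus strand) for Lef1 and chr16:23988853-23989102 (minus strand) for Bcl6.
Ascl2: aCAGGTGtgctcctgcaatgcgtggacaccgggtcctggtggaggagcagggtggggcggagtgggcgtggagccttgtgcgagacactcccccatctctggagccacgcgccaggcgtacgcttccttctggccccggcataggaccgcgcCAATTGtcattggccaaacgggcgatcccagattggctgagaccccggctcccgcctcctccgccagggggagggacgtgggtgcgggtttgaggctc
Lef1: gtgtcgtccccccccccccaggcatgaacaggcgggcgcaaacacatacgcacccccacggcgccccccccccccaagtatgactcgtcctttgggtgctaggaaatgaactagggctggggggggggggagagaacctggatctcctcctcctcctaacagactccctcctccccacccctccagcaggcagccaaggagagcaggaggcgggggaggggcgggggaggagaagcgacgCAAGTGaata
Bcl6: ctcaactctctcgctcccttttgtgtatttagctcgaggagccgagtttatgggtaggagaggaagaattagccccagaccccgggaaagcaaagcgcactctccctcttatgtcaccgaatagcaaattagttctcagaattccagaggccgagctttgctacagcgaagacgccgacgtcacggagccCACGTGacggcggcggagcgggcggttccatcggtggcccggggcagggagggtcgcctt
The Ascl2 window held 2 matches to CANNTG, and the Lef1 and Bcl6 windows shown held 1 each. Lef1 and Bcl6 also have windows not shown. That of Bcl6 at start site 2 held 0 matches, and that of Lef1 at start site 3 held 2. A match is common: 66.2% of 32851 promoter windows of the same length hold one. The form CAGCTG, one kind of E-box, was found in 2 of the 12 windows, 1 of Tcf7 and 1 of Lef1. Of all windows 13% hold it. The Lef1 windows of start sites 1 and 2 overlap, so the 12 windows are not all separate. Neither CTTTGAA nor CTTTGAT, the letters used here for a TCF/LEF motif on both strands, was in any of the 12 windows, and 7.48% of all windows hold either. These are matches of letters in short windows and say nothing of binding.

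Tcf7 and Lef1 marked the naive T cells in both libraries. Tcf7 stood at 545 CPM in naive CD4-like cells of the knockout-labelled library and 609 CPM in the wild-type library, and at 523 and 451 CPM in naive CD8-like cells. Innate-like T cells held 65.1 and 60.3 CPM. Tcf7 was thus 8.37 times higher in naive CD4-like than in innate-like T cells in the first library (6.22 to 11.4) and 10.1 times in the second (7.74 to 13.4). Intermediate levels were found in the Klra6 cluster (302 and 289 CPM), in Eomes-positive NK-like cells (211 and 241 CPM) and in CD8-like cells (144 and 221 CPM). The Itga1-positive NK/ILC1-like cells (27.8 and 30.3 CPM) and the Itga1-positive T cluster (20.6 and 31.8 CPM) were both low. Neighbours in this order did not separate beyond their intervals. B cells held 5.90 and 4.99 CPM. Outside lymphocytes Tcf7 was at 11.5 and 12.7 CPM in stellate cells and 8.62 and 7.71 CPM in hepatocytes.

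Lef1 was also highest in the naive subsets, with 1837 and 1835 CPM in naive CD4-like cells and 2223 and 1794 CPM in naive CD8-like cells. It was found in 95.5% and 96.5% of naive CD4-like cells. The Klra6 cluster held 1187 and 1105 CPM, below both naive subsets in both libraries, and innate-like T cells held 351 and 418 CPM. Lef1 also had counts in B cells, at 81.3 and 57.7 CPM, a ratio of 1.41 (1.15 to 1.72) between libraries, and in 14.7% and 11.5% of B cells. Both B cell clusters were higher in the knockout-labelled library: 68.1 against 52.7 CPM in the larger and 167 against 97.9 CPM in the smaller. B cell Lef1 stayed below the size rule. When every cell was thinned to 2000 UMIs, Lef1 was found in 54.3% of 455 and 61.3% of 542 T cells, against 0.562% and 0.576% of hepatocytes, which should lack it (median depths 5810.5 and 5568.5 UMIs for T cells, 5535.5 and 5057 for hepatocytes). Tcf7 was found in 30.1% and 37.5% of thinned T cells, against 1.61% and 1.55% of thinned hepatocytes. Unthinned, Lef1 and Tcf7 were both found in 209 T cells (42.0%) and 292 T cells (50.7%).

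**Figure D2:**
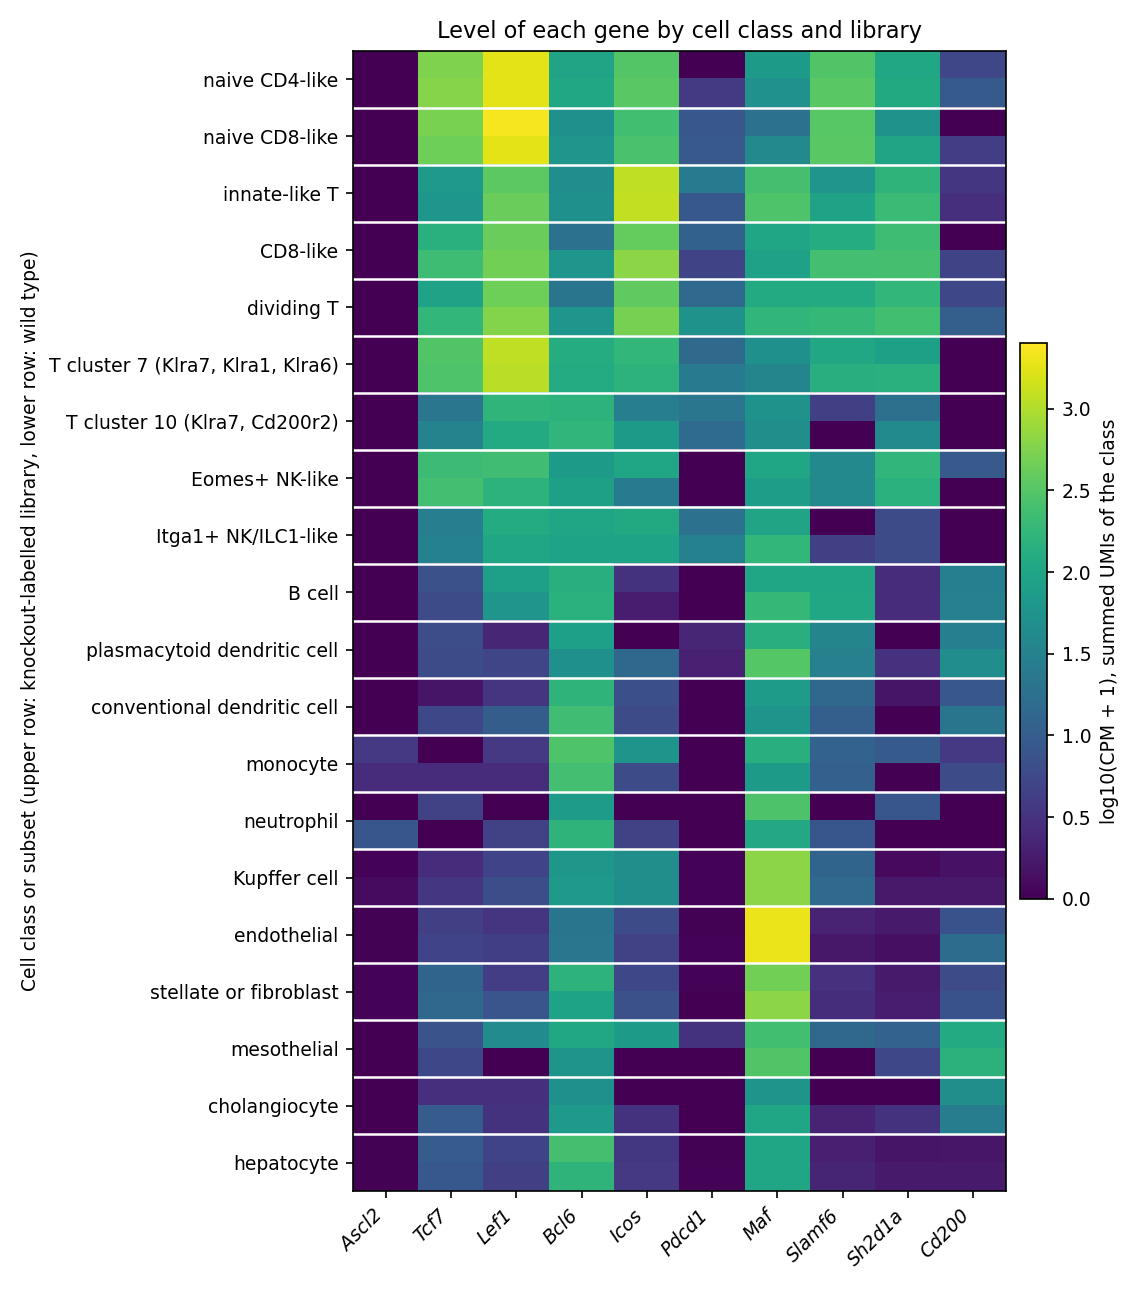
Heat map of the level of each member, as log10(CPM + 1), in the 20 classes and subsets with at least 20 cells in each library. The upper row of a class is the knockout-labelled library and the lower row the wild-type library. Among these units Tcf7 and Lef1 are brightest in naive T cells, Icos in innate-like T cells (1180 and 1212 CPM), Maf in endothelial cells (2005 and 2027 CPM) and Cd200 in mesothelial cells.

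Slamf6, a SLAM family receptor that binds itself on neighbouring cells, had its highest levels in naive T cells. It stood at 324 and 338 CPM in naive CD8-like cells and 300 and 333 CPM in naive CD4-like cells. Innate-like T cells held 57.9 and 89.1 CPM, a ratio between libraries of 0.65 (0.449 to 0.931). B cells held 102 and 105 CPM and plasmacytoid dendritic cells 34.6 and 29.2 CPM. In Itga1-positive NK/ILC1-like cells Slamf6 had 0 and 2 UMIs, and in Eomes-positive NK-like cells 5 and 5 UMIs. Sh2d1a, the gene of the adaptor SAP, was spread differently. It was highest in CD8-like cells (221 and 245 CPM), dividing T cells (179 and 230 CPM), innate-like T cells (160 and 206 CPM) and Eomes-positive NK-like cells (172 and 148 CPM), whose intervals overlapped. Naive CD4-like cells held 110 and 114 CPM. The Itga1-positive NK/ILC1-like cells had 2 and 3 UMIs of Sh2d1a, so innate-like T cells stood 31.7 times higher in the first library (8.61 to 265) and 40.8 times in the second (13.8 to 199). B cells held 1.68 and 1.66 CPM. Slamf6 and Sh2d1a were found together in 106 T cells (21.3%) and 134 T cells (23.3%).

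Icos, the inducible costimulator, marked innate-like T cells. It stood at 1180 and 1212 CPM there and was found in 90.9% and 89.8% of these cells. The small Il17a cluster reached 1205 and 1402 CPM in 12 and 10 cells. CD8-like cells held 392 and 644 CPM, dividing T cells 376 and 509 CPM, naive CD4-like cells 313 and 339 CPM and naive CD8-like cells 236 and 268 CPM. The Itga1-positive T cluster was low, with 8 and 24 UMIs (27.5 and 69.3 CPM). Outside lymphocytes the Kupffer cells stood out, at 46.7 and 47.7 CPM and in 27.9% and 27.8% of cells. After thinning, Icos was found in 7.62% and 9.86% of Kupffer cells against 0.386% and 0.540% of hepatocytes (median depths 8678 and 8333 against 5535.5 and 5057 UMIs). Icos and Maf were found together in 70 of 132 and 92 of 177 innate-like T cells, 53.0% and 52.0%, and in 18.2% and 9.93% of naive CD4-like cells.

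Among lymphocytes Maf was highest in the small Il17a cluster (311 and 303 CPM, in 12 and 10 cells) and in innate-like T cells (247 and 294 CPM), whose intervals overlapped. Naive CD4-like cells held 69.7 and 52.2 CPM and naive CD8-like cells 17.4 and 39.2 CPM. Itga1-positive NK/ILC1-like cells held 96.1 and 177 CPM, 38 against 105 UMIs, with a ratio of 0.544 (0.365 to 0.795). The endothelial list summed to 273 and 313 CPM in those cells and its part in the result was not tested. The highest Maf levels of the livers lay outside lymphocytes: endothelial cells at 2005 and 2027 CPM, Kupffer cells at 635 and 643 CPM, and stellate cells at 479 and 637 CPM. Endothelial cells separated from every other unit in both libraries. Maf was found in 97.3% and 96.5% of endothelial cells.

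Pdcd1 was rare. It had 51 and 49 UMIs in T cells, 15 and 13.6 CPM, and was found in 7.03% and 4.51% of them. Innate-like T cells held 20 and 8 of these UMIs (24.1 and 7.66 CPM), dividing T cells 12 and 17 (13.5 and 54.4 CPM) and naive CD4-like cells 0 and 2. Outside T cells the Itga1-positive NK/ILC1-like cells had 7 and 18 UMIs, while B cells, neutrophils and monocytes had 0. The ratio in innate-like T cells was 3.15 (1.33 to 8.26), but with 28 UMIs in all it did not reach the 50 UMIs of the size rule. Cd200, the ligand of the inhibitory receptor Cd200r1, was barely present in T cells, with 8 and 14 UMIs (2.36 and 3.88 CPM). Among whole classes its highest level was in mesothelial cells, at 118 and 154 CPM, followed by plasmacytoid dendritic cells (28.0 and 45.8 CPM), cholangiocytes (46.8 and 26.3 CPM) and B cells (28.6 and 29.4 CPM).

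Bcl6 was not a mark of any 1 T cell subset. In T cells it stood at 56.3 and 78.9 CPM, with 155 and 173 CPM in the Itga1-positive T cluster, 97.2 and 107 CPM in naive CD4-like cells, 98.6 and 94.2 CPM in Itga1-positive NK/ILC1-like cells and 45.8 and 49.8 CPM in innate-like T cells. These levels were matched or exceeded elsewhere in the liver: monocytes held 294 and 244 CPM, hepatocytes 249 and 162 CPM, conventional dendritic cells 163 and 224 CPM and B cells 136 and 146 CPM. Endothelial cells were low at 20.1 and 20.7 CPM. The hepatocyte marker list summed to 3997 and 4155 CPM in T cells, and its part in the Bcl6 values there was not tested.

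Cells with the joint pattern of follicular helper T cells were at the edge of detection. Cxcr5, the follicle-homing receptor, was found in 10 T cells (2.01%) and 20 T cells (3.47%). Cxcr5 and Pdcd1 were found together in 1 T cell of the knockout-labelled library and in 0 of 576 in the wild-type library. Cxcr5, Icos and Bcl6 were found together in 2 and 3 T cells. Il21, the cytokine that follicular helper cells give to B cells, was found in 1 T cell of each library. The regulatory T cell gene Foxp3 was found in 7 and 6 T cells. The marker lists held no follicular helper class, and the members were left out of the clustering. No cluster could therefore be named follicular helper, and the lack of one says nothing of such cells. No level is given for them.

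Most members stood somewhat lower in T cells of the knockout-labelled library, and none was called different. Of the 10 members 8 had enough UMIs, and 0 passed the size rule, where 2.16% of 9435 genes did. With so few members a count of 0 is near that share and is no result about them. Tcf7 had 712 and 1007 UMIs, 210 and 279 CPM, a ratio of 0.753 (0.683 to 0.829). Slamf6 stood at 141 and 193 CPM, a ratio of 0.733 (0.651 to 0.824), and Bcl6 at a ratio of 0.714 (0.591 to 0.860). Lef1 stood at 828 and 963 CPM (ratio 0.860, 0.818 to 0.904) and Icos at 529 and 614 CPM (ratio 0.861, 0.808 to 0.916). Sh2d1a stood at 134 and 153 CPM (0.874, 0.771 to 0.992), Maf at 126 and 139 CPM (0.908, 0.796 to 1.03) and Pdcd1 at a ratio of 1.11 (0.734 to 1.67). The median log2 ratio of the 8 was -0.22, and that of all 9435 genes was 0.03.

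The T cell values of Tcf7 and Lef1 moved with the mix of subsets. The dividing marker list summed to 1462 and 526 CPM in T cells of the knockout-labelled and wild-type libraries, and the naive list to 3690 and 4828 CPM. Dividing T cells were low in Tcf7, at 89.7 and 179 CPM. With dividing T cells left out, a choice made after seeing the data, the ratio of Tcf7 was 0.877 (0.792 to 0.971), of Lef1 0.967 (0.917 to 1.02), of Bcl6 0.859 (0.704 to 1.04) and of Slamf6 0.771 (0.676 to 0.876), and that of Pdcd1 was 1.60 (0.982 to 2.65). With the same mix of subsets set in both libraries, Lef1 stood at a ratio of 1.04, Tcf7 at 0.924, Icos at 0.895, Maf at 0.896, Bcl6 at 0.822, Slamf6 at 0.809, Sh2d1a at 0.784 and Pdcd1 at 1.09. Sh2d1a was thus further from 1 than with the T cells as found. Lef1 was thus lower with the T cells as found and level or slightly higher with the mix held the same, while Slamf6 was lower in each of these ways.

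Subsets were then compared one by one. Naive CD4-like, naive CD8-like, innate-like, Itga1-positive T and Itga1-positive NK/ILC1-like cells were large enough, and 26 pairs of member and subset had enough UMIs. None of the 26 passed the size rule, where 1.06%, 1.27%, 0.972%, 1.36% and 1.45% of all genes did in those subsets in that order. That none passed is near those shares and is no result about the members. In naive CD4-like cells the ratio of Tcf7 was 0.894 (0.764 to 1.05) and that of Lef1 1.0 (0.918 to 1.09). In naive CD8-like cells Lef1 stood at a ratio of 1.24 (1.13 to 1.35) and Sh2d1a, with 22 and 62 UMIs, at 0.564 (0.330 to 0.930). In innate-like T cells Icos stood at 0.973 (0.894 to 1.06) and Sh2d1a at 0.779 (0.623 to 0.972). CD8-like cells had only 44 cells in the wild-type library and were not compared; Icos there had 112 and 163 UMIs and Slamf6 36 and 61. The subset with the highest level among naive CD4-like, naive CD8-like, innate-like and Itga1-positive NK/ILC1-like cells was the same in both libraries for 5 of the 8 members.

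Beyond the lymphocyte subsets 10 cell classes were large enough, and 42 pairs of member and class had enough UMIs and 3 passed the size rule. In neutrophils, where 7.78% of genes passed (5.31% higher and 2.47% lower), Bcl6 was lower in the knockout-labelled library, with 21 and 45 UMIs (73.6 and 160 CPM) and a ratio of 0.459 (0.260 to 0.786). Maf was higher there, with 80 and 31 UMIs (280 and 110 CPM) and a ratio of 2.54 (1.66 to 3.97). In plasmacytoid dendritic cells, where 5.93% of genes passed (1.58% lower), Maf was lower, with 100 and 305 UMIs (133 and 318 CPM) and a ratio of 0.419 (0.331 to 0.527). The shares of genes that passed were 0.43% in hepatocytes, 1.4% in stellate cells, 0.81% in B cells, 0.143% in endothelial cells, 0.193% in Kupffer cells, 1.61% in monocytes, 2.98% in conventional dendritic cells and 2.16% in cholangiocytes, and no member passed in these. With few members in each class this lack is near those shares and is no result about the members.

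The Maf counts in neutrophils and plasmacytoid dendritic cells sat in few cells. In neutrophils Maf was found in 12 cells of each library, and the top cell held 39 of 80 UMIs in the knockout-labelled library and 17 of 31 in the wild-type library. In plasmacytoid dendritic cells it was found in 31 and 30 cells, and 4 cells in each library held 50% of the UMIs. The endothelial marker list, from the class where Maf was highest, summed to 1405 and 681 CPM in neutrophils and to 1697 and 2261 CPM in plasmacytoid dendritic cells, with none of its 8 markers at 0. The Kupffer list summed to 2572 and 734 CPM in neutrophils. These lists moved the same way as Maf, and their part in the result was not tested. Another alternative chosen after seeing the data left out the Maf UMIs of the top cell of each library, with the total UMIs of the class unchanged. The ratios were then 2.88 in neutrophils and 0.436 in plasmacytoid dendritic cells. With doublet calls kept they were 1.62 and 0.628, and neither passed the size rule. With a higher minimum depth per cell the ratio in plasmacytoid dendritic cells was 0.519, short of the rule. In B cells Maf stood at 98.1 and 181 CPM (ratio 0.543, 0.465 to 0.631), where the endothelial list summed to 923 and 1492 CPM, a list whose part was not tested. The ratio of B cell Maf was 0.80 with doublet calls kept. It was 0.391 with each library clustered alone and 0.457 without the Maf UMIs of the top cell of each library, and both of these passed the size rule. The B cell value thus depends on which cells enter the class.

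**Figure D3:**
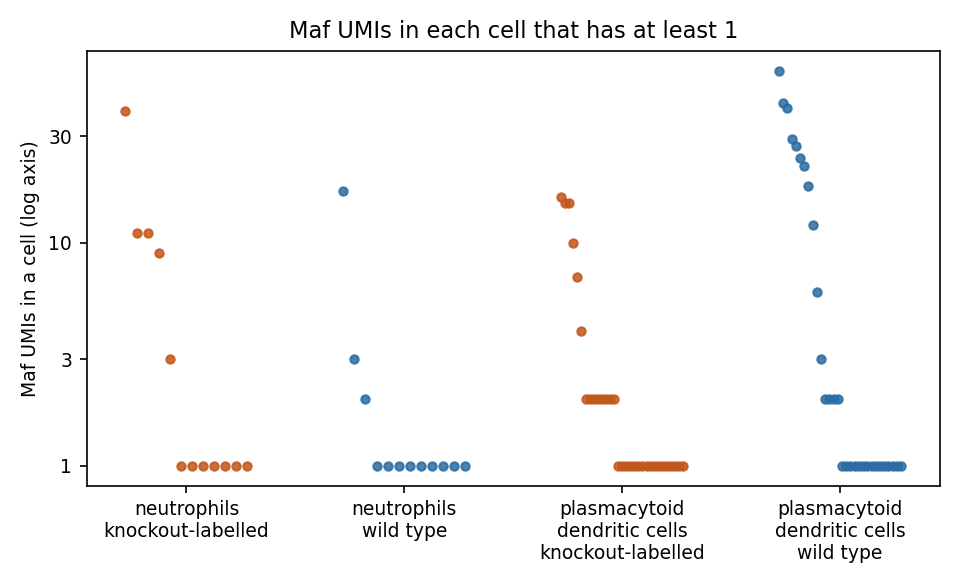
UMIs of Maf in each neutrophil and plasmacytoid dendritic cell that had any, by library, with 1 point per cell on a log axis. In neutrophils the highest cell holds 39 of the 80 UMIs of the knockout-labelled library and 17 of the 31 of the wild-type library.

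Bcl6 was higher in hepatocytes of the knockout-labelled library, below the size rule. It had 7157 and 4528 UMIs, 249 and 162 CPM, a ratio of 1.53 (1.48 to 1.59; 1.46 to 1.54 over the alternatives), and was found in 58.9% and 46.9% of hepatocytes. After thinning the shares were 33.8% and 24.6%. The difference ran through all 5 hepatocyte clusters: 299 against 205 CPM, 293 against 216 CPM, 283 against 203 CPM, 21.9 against 15.5 CPM and, in a cluster of 119 and 166 cells led by Serpina1e and Apoa2, 154 against 73.9 CPM (ratio 2.08, 1.75 to 2.46). Stellate cells also stood higher, at 159 and 91.6 CPM (ratio 1.73, 1.60 to 1.87). There the difference lay in the largest cluster, cluster 19, at 247 and 162 CPM, which was 58.4% and 50.9% of the class. The hepatocyte marker list summed to 14209 and 13422 CPM in this cluster, above the stellate list at 1326 and 1698 CPM, so its name is in doubt, and the part of hepatocyte RNA in the result was not tested. In the cluster led by Dcn the stellate list summed to 14861 and 14964 CPM and the hepatocyte list to 2048 and 2229 CPM. The cluster led by Dcn and Col14a1 held 30.1 and 34.8 CPM of Bcl6 and the cluster led by Col3a1 and Acta2 69.7 and 67.9 CPM. With each cell weighted equally the stellate ratio was 1.30. When each library was clustered alone the stellate class held 201 and 717 cells and its Bcl6 ratio was 0.314, so the stellate value depends on which cells enter the class.

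**Figure D4:**
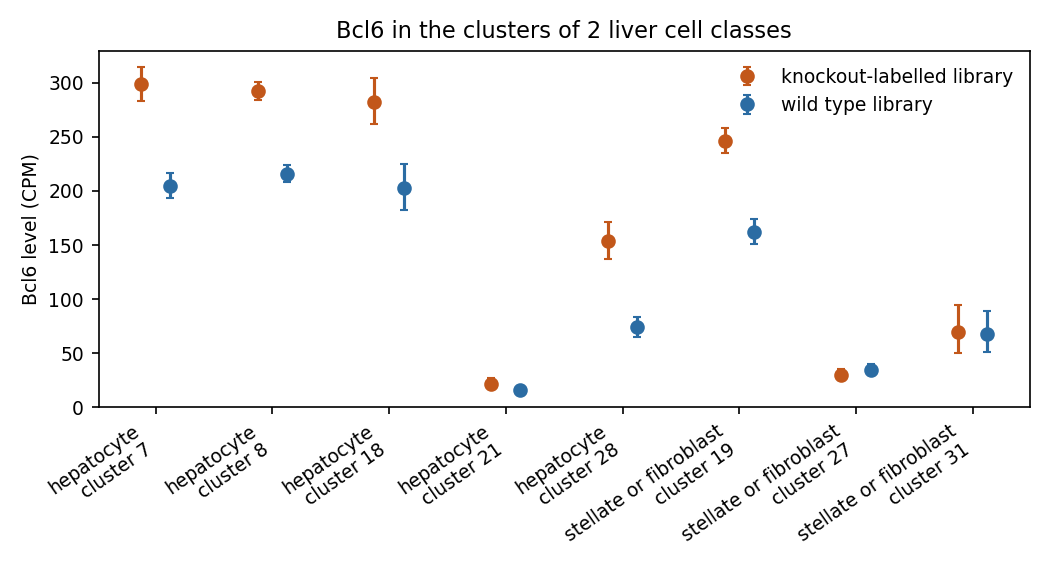
Bcl6 level (CPM) in each hepatocyte and stellate cluster of the knockout-labelled and wild-type libraries, with exact 95% intervals for counting error. All 5 hepatocyte clusters are higher in the knockout-labelled library, while 1 of the 3 stellate clusters is clearly so (247 against 162 CPM).

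Cd200 stood lower in the knockout-labelled library in a rare endothelial cluster that was too small for a comparison. Over all endothelial cells it had 150 and 392 UMIs, 6.24 and 14.7 CPM, a ratio of 0.425 (0.350 to 0.514), but it was found in fewer than 5% of them. Few cells held these counts: the top cell had 12 of 150 UMIs in the knockout-labelled library and 99 of 392 (25.3%) in the wild-type one, and 15 and 9 cells held 50%. In the cluster led by Mecom and Vwf it had 58 and 277 UMIs, 97.5 and 281 CPM, a ratio of 0.347 (0.256 to 0.461). This cluster held 45 and 82 cells, 1.73% and 2.95% of endothelial cells, so it was below the 50 cells set for a comparison. Whether the wild-type cell with 99 UMIs lies in this cluster is not given here. The share of all genes that passed the size rule in it is not given either. In a neighbouring cluster led by Rspo3 and Vwf Cd200 stood at 55.9 and 70.9 CPM (ratio 0.789, 0.585 to 1.06), and the other 3 endothelial clusters held at most 7 UMIs of it in a library.

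The wider lists were read in T cells, where 2.16% of all genes passed the size rule. In lists as short as these a count of 0 is near that share and is no result about the list. Of 28 follicular helper companion genes 19 had enough UMIs and none passed, with a median log2 ratio of -0.02; Cd28, a costimulator, stood at 609 and 703 CPM and Tox, a factor of follicular and exhausted T cells, at 629 and 596 CPM. Of 14 genes that oppose the follicular helper state all 14 had enough UMIs and none passed (median -0.18); Klf2, a factor of resting T cell traffic, stood at 1047 and 1460 CPM (ratio 0.717) and Foxp1, a keeper of T cell quiescence, at 1064 and 1261 CPM (ratio 0.844). Of 14 SLAM family and SAP partner genes 10 had enough UMIs and none passed (median 0.19); the kinase gene Fyn stood at 638 and 535 CPM and the phosphatase gene Inpp5d at 299 and 280 CPM. Of 9 E protein and Id genes, the dimer partners and inhibitors of factors such as Ascl2, 6 had enough UMIs and none passed (median -0.01); Tcf12 stood at 694 and 710 CPM and Id2 at 343 and 328 CPM. The median over all genes was 0.03.

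Of 31 Wnt, beta-catenin and TCF partner genes 21 had enough UMIs in T cells and 2 passed, both higher in the knockout-labelled library, where 1.91% of genes passed in that direction. Ctnnb1, which encodes beta-catenin, was level at 110 and 108 CPM (ratio 1.02). Tcf7l2, another TCF gene and one that is high in Kupffer cells (1001 and 1002 CPM) and hepatocytes, had 146 and 71 UMIs in T cells, 43.0 and 19.7 CPM, a ratio of 2.19 (1.64 to 2.95). Of these, 101 and 10 UMIs lay in dividing T cells, and 1 cell of the knockout-labelled library held 40. Without dividing T cells Tcf7l2 stood at a ratio of 0.973 (0.647 to 1.45). The Kupffer list summed to 413 and 323 CPM in dividing T cells, and its part in the result was not tested. Rnf43, which encodes a ligase that removes Wnt receptors, had 99 and 40 UMIs, 29.2 and 11.1 CPM, a ratio of 2.64 (1.81 to 3.91), from 50 and 32 cells. Without dividing T cells its ratio was 1.88 (1.23 to 2.89), below the size rule.

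Genes listed as ligands and receptors of the members had their highest levels in several classes, the Itga1-positive T cluster and NK/ILC1-like cells among them. Whether Cd200 binds the products of Cd200r2, Cd200r3 and Cd200r4 is not shown by these data. Cd274, a ligand of PD-1, was highest in neutrophils (319 and 528 CPM), though its interval overlapped that of monocytes (245 CPM) in the knockout-labelled library. Pdcd1lg2, the other PD-1 ligand, was highest in Itga1-positive NK/ILC1-like cells (142 and 145 CPM). The Itga1-positive T cluster held 124 and 121 CPM of it, with overlapping intervals. Icosl, the ligand of Icos, was highest in B cells (23.6 and 22.5 CPM) and conventional dendritic cells (22.9 and 22.6 CPM), whose levels did not differ beyond their intervals. Cd200r1 was highest in Itga1-positive NK/ILC1-like cells (172 and 185 CPM). The Itga1-positive T cluster held 89.3 and 130 CPM of it, with intervals that overlapped in the wild-type library. Cd200r2 stood at 240 and 261 CPM in Itga1-positive NK/ILC1-like cells and at 244 and 237 CPM in the Itga1-positive T cluster. The neutrophil counts of Cd200r3, 12 and 24 UMIs, lay in 2 cells of each library. Cd200r4 was highest in the Itga1-positive T cluster (275 and 222 CPM), followed by Itga1-positive NK/ILC1-like cells (207 and 199 CPM), with overlapping intervals. Of the 7 genes 5 had enough UMIs in T cells and none passed, where 2.16% of all genes did.

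The genes most like each member were taken by Pearson correlation of log2(CPM + 10) over 30 points, 15 classes and subsets in each library, among 15824 genes. These are descriptions: points of 1 library share its depth, and no p-value is given. Nearest to Tcf7 were A630014C17Rik (r = 0.942), Lef1 (0.939) and Gm36279 (0.938), and nearest to Lef1 were Sidt1 (0.967), Gm36279 (0.966) and Gm41331 (0.957). Nearest to Icos were Cd28 (0.908), Sh2d1a (0.904) and Pde11a (0.893), and nearest to Sh2d1a were Cd6 (0.967), Trac (0.962) and Traj18 (0.961). Slamf6 lay nearest to Myb (0.948), Gm8369 (0.917) and Dip2b (0.885), and Maf to Serpina3f (0.910), Cdh5 (0.883) and Slc12a5 (0.876). Bcl6 had no gene as near, with Ttc7 at 0.796, Tet2 at 0.737 and Diaph2 at 0.716, and Cd200 had Carmil1 at 0.855, Bmyc at 0.849 and Lztfl1 at 0.811.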

How the data were processed

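Liver from 1 Slc22a18 -/- and 1 Slc22a18 +/+ sample was profiled by droplet single-cell RNA-seq. The deposited matrices hold raw UMI counts per gene and barcode, made with Cell Ranger 8.0.1 per the file headers, with mm10 and STAR named in the submitters' processing notes. All gene rows were used. The members and gene lists were chosen with earlier results of these data known. Cells with at least 500 UMIs, 300 genes and at most 20% mitochondrial UMIs were kept, and Scrublet calls (2.66% and 2.84% of barcodes) were removed. Cells were clustered in scanpy 1.11.5 (2000 variable genes without the members, 30 components, 15 neighbours, Leiden resolution 1), and 27 of 33 clusters were named from marker lists. T, NK and ILC cells were clustered again into 14 clusters. Limits set after seeing the data were a second-best marker score of at most 0.65 of the best, a median doublet score of at most 0.15, and a Cd3 gene in at least 40% of cells for a T cell name. Clusters of low depth stay unnamed, and 13.1% and 15.4% of cells have no class. Names may differ from those of the study.

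UMIs were summed per class and library and given per 1000000 UMIs (CPM). Ratios have exact 95% Clopper-Pearson intervals, levels exact Poisson intervals, shares exact binomial intervals, and a count of 0 allows up to 3 counts. Log2 ratios used 0.5 added to each count. Cells of at least 2000 UMIs were thinned to 2000 UMIs for shares. On simulated T cell counts (9417 genes) the size rule called 50 of 50 genes changed by each of 2.5, 3 and 4 times, 0 of 50 changed by 1.5 times, and 0.119% of unchanged genes. All members are described. From each list the text names members past the size rule in T cells, otherwise the 2 with most UMIs there, and each ligand or receptor with its highest class. Ctnnb1, Cxcr5, Il21 and Foxp3 were named after their values were seen. Alternatives covered doublets, depth, mitochondrial share, weighting, edgeR 4.0.16 TMM factors, clustering and the size rule. Python 3.11.15, numpy 2.4.6, scipy 1.17.1 and pandas 2.3.3 were used.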

Additional observations from a re-analysis of the deposited data

Results flagged for a closer look

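Maf stood higher in the knockout-labelled library in one cell class and lower in another. Its log2 ratio, knockout-labelled over wild-type library, was 1.33 in neutrophils and -1.25 in plasmacytoid dendritic cells. With 1 library per genotype the difference between these classes was not tested. With each cell weighted equally the ratios were 1.47 and 0.85, and with doublet calls kept 1.62 and 0.628, and none of these passed the size rule. Both values rest on few cells, as the plot of Maf UMIs per cell shows.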

How the results depend on the processing

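No paired analysis was possible because each genotype had 1 library; for the same reason no library could be left out. In all T cells the count of members past the size rule was 0 under every alternative run, the omission of dividing T cells included. In T and NK subsets it was 0, and became 1 with subsets gated on marker UMIs (Maf, lower). It became 2 at 20 UMIs in the size rule: Icos in the Itga1-positive T cluster was lower and Pdcd1 in innate-like T cells higher. At a ratio of 1.5 it became 3: Maf in Itga1-positive NK/ILC1-like cells, Slamf6 in innate-like and Sh2d1a in naive CD8-like cells, all lower. The Maf call of the marker gate lay in cells with a Cd3 gene and Cd8a or Cd8b1, but no Cd4 or Zbtb16 UMI. In another Cd8 gate, of 178 and 177 T cells, Maf was level at 43.0 and 42.8 CPM. In other classes the count was 3, and became 1 with doublet calls kept (Bcl6 in neutrophils). It became 1 with each cell weighted equally (Maf in cholangiocytes) and 10 at a ratio of 1.5. The share of all genes that passed under these alternatives is not given here. The counts under them are therefore no result about the members. With each cell weighted equally the ratio was 1.47 for neutrophil Maf, 0.85 for plasmacytoid dendritic cell Maf and 0.573 for neutrophil Bcl6. With each library clustered alone neutrophil Bcl6 stood at 0.516. The causes were not tested. Of 116 log2 ratios of single members in T cells under an alternative, 108 stayed within their interval and 8 moved. A reversal was counted only for a member past the size rule in all T cells, and no member was, so none could be counted. The sign did change for Lef1, at a log2 ratio of 0.05 with the same mix. It also changed for Pdcd1, at -0.05 with T cells taken by marker gate. Of 800 subset levels 741 stayed and 59 moved, 30 of them under the marker gate. The order of subsets could not be had at a 2nd clustering resolution of 0.5 or with each library clustered alone, since not all 4 subsets formed. Ascl2, Pdcd1 and Cd200 had the fewest UMIs of the members in T cells, and the part of depth in this was not tested.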

Other observations

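List genes were also read in single subsets. Ctla4, an inhibitory receptor, was higher in Itga1-positive NK/ILC1-like cells of the knockout-labelled library, with 33 and 18 UMIs (83.5 and 30.3 CPM) and a ratio of 2.76 (1.51 to 5.20), in a subset where 1.45% of all genes passed the size rule. In naive CD4-like cells it stood lower, at 154 and 253 CPM (ratio 0.611, 0.459 to 0.805). Slamf1, a relative of Slamf6, was higher in naive CD8-like cells, with 40 and 30 UMIs and a ratio of 2.12 (1.29 to 3.52), where 1.27% of genes passed, and stood in innate-like T cells at 79.6 and 78.5 CPM. In the Itga1-positive T cluster, where 1.36% passed, the costimulator Cd28 was lower, with 16 and 41 UMIs (55.0 and 118 CPM) and a ratio of 0.464 (0.243 to 0.845), and Foxo1, a factor of naive T cells, was higher, with 266 and 139 UMIs (914 and 401 CPM) and a ratio of 2.28 (1.85 to 2.82). These genes were named after their values were seen.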
